A study of Mus musculus with 12 samples.

Results

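A list of 40 genes of mitosis and the spindle, chosen by name, was followed in mouse microglia grown as primary cultures. Microglia are the macrophages that live in brain tissue. For each gene the brightest probe set with a single gene symbol stood for it, by the mean over 12 arrays. Of the 40 listed genes, 39 had such a probe set (Ccnb1, the B-type cyclin of mitotic entry, had none), out of 19938 genes in all. Of these, 32 were above the filter for dim signals and were tested, among 15273 genes. The filter was the 30th percentile of all probe sets, a mean of 5.36 on the log2 scale. The 7 dim genes were Cdc25c, Bub1, Ttk, Cenpf, Kif4, Hmmr and Aspm. Nusap1 and Kif2c lay just above the filter with means of 5.37 and 5.47, and Aspm just below it with 5.28. These means count every array, also CN2 (a wild-type control), where Nusap1 read 6.36 and Kif2c 6.75, their highest values. The same tested genes were kept in fits that left arrays out.

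Cells came from wild-type mice or from mice labelled TLR4 knockout. Tlr4 is the receptor for bacterial lipopolysaccharide, and the labels do not describe how the gene was altered. Cultures were kept short of oxygen or glucose for 24 h (ischemia, keyed as hypoxia in the titles) or stayed under control conditions for the same time. A further 24 h at normal oxygen and glucose (reperfusion) followed in every group, so each array shows cells after recovery. The groups, with 3 arrays each, are wild-type control (CN), wild-type ischemia (CH), knockout control (TN) and knockout ischemia (TH). All signals below are log2 RMA values, and a change is a difference of log2 signal. Whether a group's 3 arrays stand for 3 cultures or animals is not stated in the labels. The p-values here thus rest on the spread among arrays alone, and that spread may be technical.

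A dividing cell enters mitosis when cyclins A and B activate Cdk1. Polo and Aurora kinases, the kinetochore and mitotic kinesins then build the spindle and attach chromosomes to it. The checkpoint holds cells in metaphase until attachment is complete, and separase, the central spindle and the contractile ring then part the daughter cells. The RNAs of most of these genes are made mainly in late S, G2 and M phase, so their level in a culture follows the share of cycling cells. Microglia in the adult brain divide slowly, and cultured microglia divide in response to colony stimulating factors. In RNA from whole cultures, fewer dividing cells and less of these RNAs per dividing cell cannot be told apart.

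The arrays had medians of 6.30 to 6.40, and arrays of a group correlated at 0.984 to 0.996 over the named genes. Tlr4 itself read 8.54 to 9.02 in the wild-type arrays and 8.39 to 8.97 in the others, so its signal did not separate the genotypes, and those 6 arrays are called knockout-labelled. The source name of the CH arrays reads as control, against their titles, which were followed. The wild-type arrays numbered 2 stood apart before any comparison of these genes. Microglia markers had a mean of 9.91 in CN2 and 9.90 in CH2, against 9.03 to 9.37 in the other 10 arrays. Interferon-stimulated genes had a mean of 9.26 in CN2 and 10.4 in CH2, while CN1, CN3, CH1 and CH3 lay between 7.204 and 8.998. The wild-type comparisons are therefore also given without CN2 and CH2.

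Promoters of the mitosis genes carry a pair of short elements known to bind cell cycle factors. One is the cell cycle genes homology region, TTTGAA, through which the MuvB complex acts, and the other is CCAAT, the letters that NF-Y binds. Windows from 250 bases before to 50 bases after a transcription start (RefSeq, GRCm38.p6) were found for 33 of the 40 genes, in 35 windows. The windows of 5 members are shown because Mki67, Top2a and Kif11 were among the genes called lower after ischemia in the wild type, while Cdk1 and Mad2l1 were not. They lie at chr7:135716330-135716629 (Mki67, minus strand), chr11:99024140-99024439 (Top2a, minus), chr19:37376132-37376431 (Kif11, plus), chr10:69352863-69353162 (Cdk1, minus) and chr6:66534971-66535270 (Mad2l1, plus). Capitals mark TTTGAA and CCAAT on either strand (TTCAAA and ATTGG on the other one), which do not overlap each other.
Mki67: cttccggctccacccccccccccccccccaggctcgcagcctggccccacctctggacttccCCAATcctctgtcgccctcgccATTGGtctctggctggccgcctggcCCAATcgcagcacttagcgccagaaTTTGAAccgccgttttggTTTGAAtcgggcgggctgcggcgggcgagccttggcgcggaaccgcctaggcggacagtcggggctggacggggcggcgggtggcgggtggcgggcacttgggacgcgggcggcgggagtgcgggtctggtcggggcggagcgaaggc
Top2a: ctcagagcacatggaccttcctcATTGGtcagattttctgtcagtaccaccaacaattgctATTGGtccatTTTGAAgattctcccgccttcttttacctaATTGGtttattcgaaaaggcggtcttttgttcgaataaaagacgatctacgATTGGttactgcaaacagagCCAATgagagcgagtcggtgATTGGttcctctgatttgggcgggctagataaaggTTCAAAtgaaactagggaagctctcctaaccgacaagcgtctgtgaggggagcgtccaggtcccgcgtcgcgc
Kif11: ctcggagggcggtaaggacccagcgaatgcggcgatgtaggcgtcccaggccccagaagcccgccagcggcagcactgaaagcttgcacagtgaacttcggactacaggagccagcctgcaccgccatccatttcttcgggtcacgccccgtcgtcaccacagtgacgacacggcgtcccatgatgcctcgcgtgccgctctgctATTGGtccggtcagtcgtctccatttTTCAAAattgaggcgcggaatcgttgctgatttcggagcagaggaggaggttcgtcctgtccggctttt
Cdk1: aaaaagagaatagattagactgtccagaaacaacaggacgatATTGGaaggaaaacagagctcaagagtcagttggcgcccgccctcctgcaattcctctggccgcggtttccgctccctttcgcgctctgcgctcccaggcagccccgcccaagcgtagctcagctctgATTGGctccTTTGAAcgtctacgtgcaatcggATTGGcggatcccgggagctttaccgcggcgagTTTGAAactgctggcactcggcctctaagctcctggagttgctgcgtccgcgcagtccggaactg
Mad2l1: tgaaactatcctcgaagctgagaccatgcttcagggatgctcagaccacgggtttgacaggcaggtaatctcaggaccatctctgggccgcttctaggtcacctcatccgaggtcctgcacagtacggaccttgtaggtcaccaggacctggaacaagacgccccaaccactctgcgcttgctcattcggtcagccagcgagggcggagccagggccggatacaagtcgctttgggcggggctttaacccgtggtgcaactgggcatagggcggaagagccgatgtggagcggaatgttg

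TTTGAA was in 28 of the 35 windows (80.0%), against 17.9% of all 32851 windows of that length. It lay between 50 bases before the start and the window's end in 26 of them (74.3%, against 4.94%). CCAAT was in 27 windows (77.1%, against 37.4%), and both were in 68.6%, against 6.95%. Cdk1 held 2 copies of TTTGAA and 3 of CCAAT, as did Mki67, and Top2a held 2 and 6. The windows of Birc5, Mad2l1, Nuf2 and Nusap1 held neither. Of these 4, Birc5 and Nuf2 were called lower in the wild type after ischemia and Mad2l1 and Nusap1 were not. A match describes the window only.

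**Figure D1:**
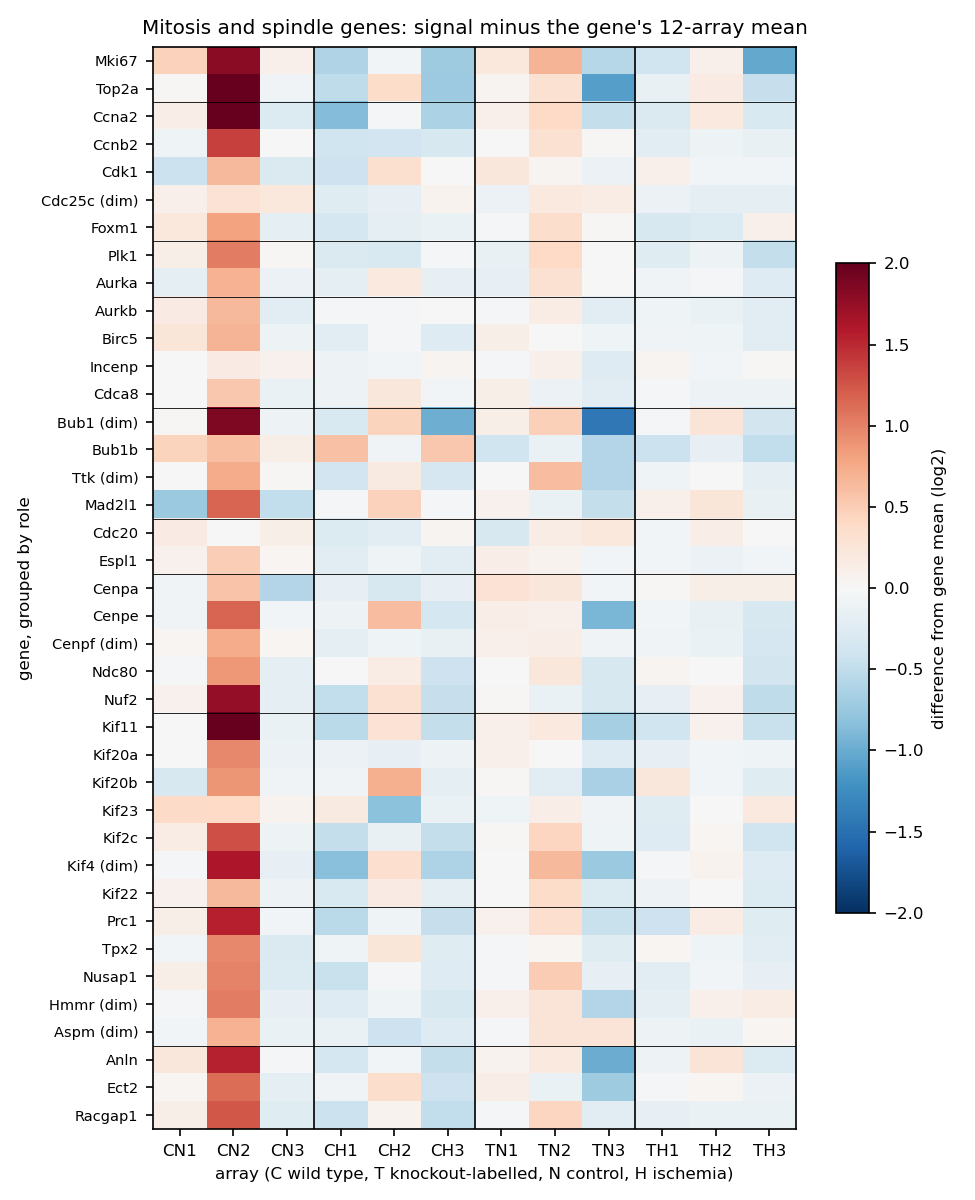
Signal of the 39 mitosis and spindle genes in each array (columns, 4 groups of 3) minus the gene's mean over 12 arrays (log2, blue lower, red higher), grouped by role from proliferation markers to cytokinesis. CN2 is the darkest red column, and it was the highest of the 12 arrays in 31 of the 32 tested genes.

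One array dominated the level of these genes. CN2, a wild-type control array, was the highest of the 12 in 31 of the 32 tested members, against 5.49% of all genes tested. The exception was Cdc20, the activator of the anaphase-promoting complex, which was highest in TN3. The filter mean counted CN2, and Kif2c and Nusap1 lay just above the filter. The dim members were highest in CN2 too. The median member was 0.96 above its own mean in CN2. In the other control arrays of the wild type it was 0.08 above (CN1) and 0.11 below (CN3, -0.11). The median member was at -0.26, -0.02 and -0.23 in CH1, CH2 and CH3. It was at 0.03, 0.17 and -0.25 in TN1, TN2 and TN3, and at -0.10, -0.04 and -0.23 in TH1, TH2 and TH3. Array 2 had the highest median of its group in all 4 groups. The same array was highest in 36 of 46 other tested mitosis genes and in 25 of 29 genes of DNA replication and S phase entry. The part of the microglia marker and interferon levels of CN2 in these values was not tested.

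**Figure D2:**
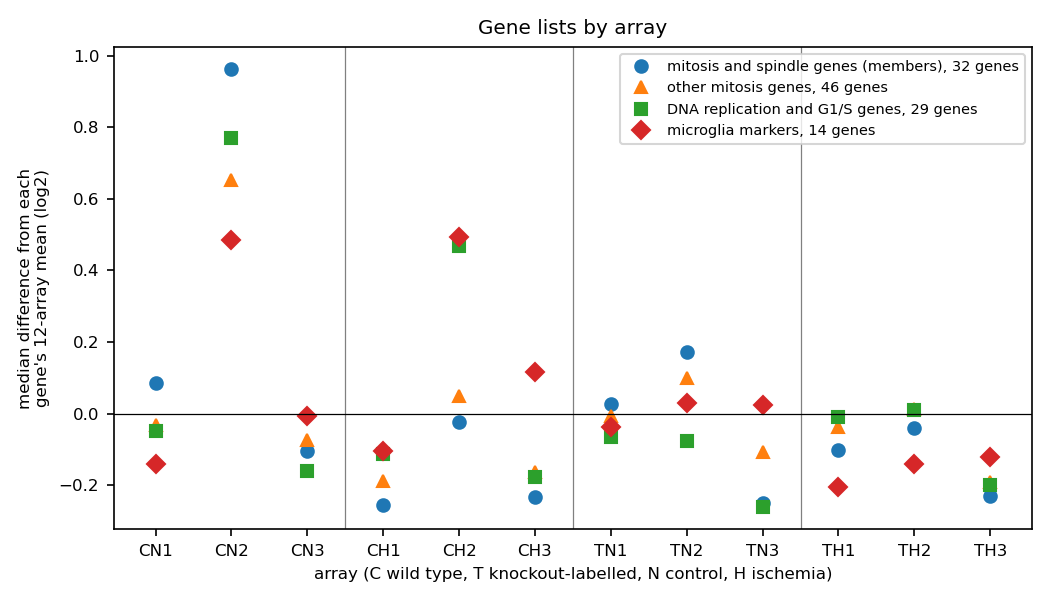
Median difference from each gene's 12-array mean (log2, vertical axis) in each array (horizontal axis) for the 32 mitosis and spindle genes, 46 other mitosis genes, 29 replication and G1/S genes and 14 microglia markers. All 4 lists are high in CN2, while in CH2 the replication genes and microglia markers stay high and the mitosis genes lie near 0.

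The first comparison asked how mitosis genes of wild-type microglia stood 24 h after ischemia. With all arrays they were lower: 31 of the 32 tested genes had a change below 0, against 47.6% of all genes. The median was -0.40 against 0.012 over all genes. Without CN2 alone, 21 of the 32 were lower and the median was -0.16. With all arrays and 1 mean per group, limma called none of the 32 (smallest adjusted p = 0.271), while 11 had an unadjusted p under 0.05, all lower (7.29% of all genes). That fit called 0.0131% of all genes higher and 0.0% lower. Same-numbered arrays of a genotype deviated together, so the fit with the number as a block is given beside it and is called the paired fit. It used all 12 arrays, so each SE pools the spread of the wild-type and knockout-labelled pairs. Such an SE is not the spread of the wild-type pairs alone. The paired fit called 11 members lower and none higher, against 0.74% of all genes lower and 2.99% higher. These were Mki67, Top2a, Ccna2, Birc5, Espl1, Nuf2, Kif11, Kif2c, Prc1, Anln and Racgap1. The groups did not overlap in 7 members, all lower (12.3% of all genes): Mki67, Ccnb2, Plk1, Espl1, Kif2c, Prc1 and Anln.

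Mki67 and Top2a, the proliferation markers of the list, were both called. Mki67 encodes the Ki-67 antigen, which coats mitotic chromosomes. It read 7.28, 8.64 and 6.93 in CN1 to CN3 and 6.23, 6.76 and 6.11 in CH1 to CH3. All 3 ischemia arrays lay below all 3 control arrays. Mki67 fell by 1.25 (SE 0.15, paired fit of limma, adjusted p = 0.000627), a fold of 2.37, from 7.62 ± 0.90 (SD, n = 3) to 6.37 ± 0.35. Its changes in wild-type pairs 1 to 3 were -1.05, -1.87 and -0.82, and in the knockout-labelled pairs -0.62, -0.59 and -0.45. Top2a encodes topoisomerase II alpha, which untangles sister chromatids. It read 6.85, 8.95 and 6.76 in control and 6.32, 7.19 and 6.11 after ischemia. CH2 lay above CN1 and CN3, so the groups overlapped, while each ischemia array lay below the control array of its own number. Top2a fell by 0.98 (SE 0.20, paired fit of limma, adjusted p = 0.0186).

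Of the cyclins and entry factors, Ccna2 was the one called. Cyclin A2 pairs with Cdk2 in S phase and with Cdk1 at mitotic entry. It read 6.71, 8.59 and 6.29 in control and 5.71, 6.55 and 5.93 after ischemia, where only CH2 reached the control range. Ccna2 fell by 1.14 (SE 0.22, paired fit of limma, adjusted p = 0.0130). Ccnb2, a B-type cyclin, read 6.28, 7.74 and 6.36 in control and 5.98, 5.99 and 6.06 after ischemia. Its groups did not overlap, and its change of -0.79 missed the threshold (paired fit of limma, adjusted p = 0.0516). Foxm1, the transcription factor that drives G2 and M phase genes, differed by -0.50 (adjusted p = 0.0981). Cdk1, the kinase these cyclins activate, read 6.58, 7.67 and 6.73 in control and 6.60, 7.33 and 7.03 after ischemia. The Cdk1 groups overlapped throughout and its change was -0.01, with a 95% interval of -0.26 to 0.24 in the paired fit. Cdc25c, the phosphatase that activates Cdk1, was dim at 4.94, 5.13 and 5.05 against 4.60, 4.66 and 4.90.

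Among the kinases, Plk1 had the larger change. Polo-like kinase 1 acts on centrosomes, kinetochores and the cleavage furrow. Plk1 read 6.43, 7.34 and 6.34 in control and 6.03, 6.01 and 6.29 after ischemia, without overlap, and its change of -0.59 was not called (paired fit of limma, adjusted p = 0.0765). Aurka, the centrosomal Aurora kinase, differed by -0.19. The chromosomal passenger complex corrects faulty attachments through Aurkb with Incenp, Birc5 and Cdca8. Birc5 (survivin) read 6.04, 6.48 and 5.70 in control and 5.56, 5.77 and 5.55 after ischemia, with CH2 above CN3. Birc5 fell by 0.45 (SE 0.11, paired fit of limma, adjusted p = 0.0380). The other 3 subunits were not called: Aurkb differed by -0.22, Incenp by -0.12 and Cdca8 by -0.11.

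Neither of the 2 tested checkpoint genes was called. Mad2l1 encodes Mad2, which holds back Cdc20 while kinetochores are unattached. It read 7.08, 8.98 and 7.33 in control and 7.78, 8.28 and 7.79 after ischemia, so CH1 and CH3 lay above CN1 and CN3 and CH2 below CN2. Bub1b encodes BubR1, a partner of Mad2 in the checkpoint complex. It read 7.69, 7.84 and 7.35 in control and 7.82, 7.16 and 7.77 after ischemia, with the groups overlapping. The changes of 0.16 and -0.04 were not called. Bub1, the kinetochore kinase of the checkpoint, was dim: it read 5.11, 6.95 and 4.99 in control and 4.79, 5.53 and 4.11 after ischemia. Its change was -0.87 in the fit without the dim filter (limma with the block, adjusted p = 0.0835). Ttk, the Mps1 kinase, was dim too and differed by -0.43. Of the genes that end mitosis, Espl1 (separase, which cuts cohesin) read 6.33, 6.74 and 6.28 in control and 6.02, 6.15 and 6.02 after ischemia, without overlap. Espl1 fell by 0.39 (SE 0.10), with an adjusted p in the paired fit of limma (0.049991) at the edge of the threshold. Cdc20 differed by -0.25.

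Kinetochore and motor genes held 3 of the called members. Nuf2, part of the Ndc80 complex that grips microtubules, read 5.78, 7.45 and 5.51 in control and 5.20, 6.00 and 5.24 after ischemia. CH2 lay within the control range, and each pair was lower. Nuf2 fell by 0.77 (SE 0.17, paired fit of limma, adjusted p = 0.0266), while its partner Ndc80 differed by -0.30, Cenpe, a kinetochore motor, by -0.29, and the centromeric histone Cenpa by -0.19. Kif11, the Eg5 motor that pushes spindle poles apart, read 5.73, 7.75 and 5.61 in control and 5.21, 6.03 and 5.27 after ischemia, again with CH2 in the control range. Kif11 fell by 0.86 (SE 0.20, adjusted p = 0.0343). Kif2c, a microtubule depolymerase at centromeres, read 5.63, 6.75 and 5.38 in control and 4.99, 5.32 and 4.99 after ischemia, with no overlap. Kif2c fell by 0.82 (SE 0.15, adjusted p = 0.00974). The other kinesins ran from -0.55 for Kif23, a central spindle motor, to -0.01 for Kif20b, and none was called. Kif4, a chromosome-arm kinesin, was dim and differed by -0.84 in the fit without the dim filter, where the block gave an adjusted p of 0.0424 in limma. That fit called 6 of 39 members lower, against 37 of 19938 genes.

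Spindle and cytokinesis genes completed the called set. Prc1 bundles the antiparallel microtubules of the central spindle. It read 6.11, 7.55 and 5.93 in control and 5.44, 5.90 and 5.52 after ischemia, with every ischemia array below every control array. Prc1 fell by 0.91 (SE 0.19, paired fit of limma, adjusted p = 0.0189). Tpx2, an activator of Aurora A, and Nusap1, a microtubule bundler, differed by -0.23 and -0.52 without a call. Anln (anillin, a scaffold of the contractile ring) read 5.79, 7.10 and 5.53 in control and 5.21, 5.50 and 5.09 after ischemia, without overlap. Anln fell by 0.87 (SE 0.19, adjusted p = 0.0266). Racgap1, which forms the centralspindlin complex with Kif23, read 7.48, 8.62 and 7.13 in control and 6.94, 7.44 and 6.87 after ischemia, with CH2 above CN3. Racgap1 fell by 0.66 (SE 0.16, adjusted p = 0.0336), and Ect2, the exchange factor that activates RhoA at the furrow, differed by -0.37.

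**Figure D3:**
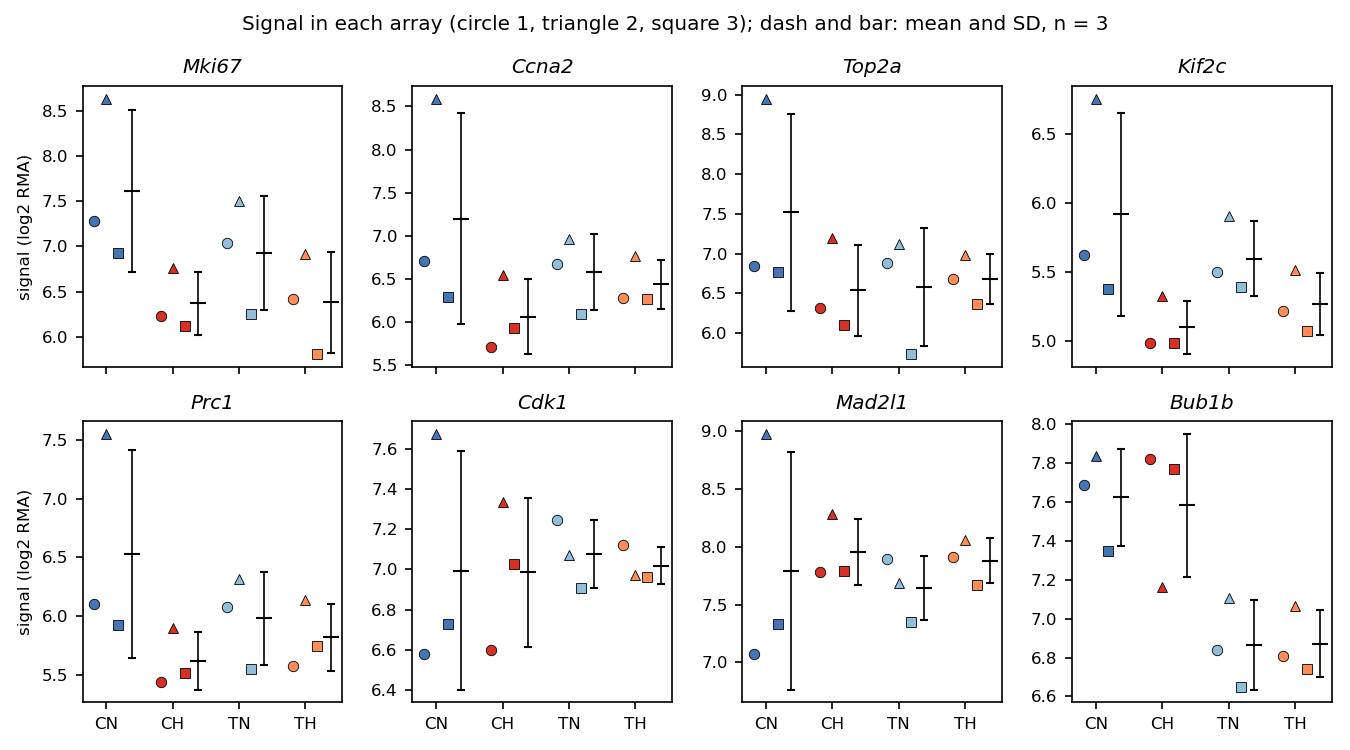
Log2 RMA signal (vertical axes, each on its own range) of 8 members in the 3 arrays of each group, with array 1 as a circle, 2 as a triangle and 3 as a square, and the mean and SD beside them. In the wild-type control group array 2 is the highest point in all 8 panels; Mki67, Kif2c and Prc1 have no overlap between CN and CH, and Bub1b is lower in TN and TH than in CN.

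The size of the wild-type difference depended on the arrays numbered 2, CN2 in particular. The median change of the 32 members was -0.31 in pair 1, -0.82 in pair 2 and -0.14 in pair 3. In these pairs 27, 32 and 22 members were lower, against 51.5%, 50.2% and 43.2% of all genes. All 3 pairs were lower in 20 members, against 22.9% of all genes. The largest change in pair 2 was that of Ccna2 (-2.04), while in pairs 1 and 3 it was that of Mki67 (-1.05 and -0.82). Mad2l1 was higher by 0.71 in pair 1 and 0.46 in pair 3, and lower in pair 2 (-0.69).

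Without CN2 alone the median of the members was -0.16 (0.00011 over all genes), with 21 lower and 11 higher. Limma without the block then called none. Without CH2 alone the median was -0.49, with 31 lower. Without CN2 and CH2 it was -0.24 (0.011 over all genes), with 25 of 32 lower. In the paired fit without that pair limma called 3 members lower, against 0.183% of all genes, and 1 higher, against 3.01%. Mki67 fell by 0.93 (adjusted p = 0.00248), Ccna2 by 0.68 (adjusted p = 0.0490) and Kif2c by 0.51 (adjusted p = 0.0392), while Mad2l1 rose by 0.58 (adjusted p = 0.0352). The other 8 of the 11 kept a negative change, from -0.59 for Top2a to -0.28 for Espl1, without a call. Without CN2 alone these 8 ran from -0.40 for Prc1 to -0.17 for Nuf2, with Top2a at -0.27. Mki67, Ccna2 and Kif2c were then at -0.74, -0.44 and -0.40. CH1 and CH3 both lay below CN1 and CN3 in 16 members (23.9% of all genes) and above them in Bub1b and Mad2l1 (28.4% of all genes).

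Leaving out another pair also moved the count. The paired fit called 5 members lower without pair 1 (0.124% of all genes) and 14 without pair 3 (0.386%). Mki67, Ccna2 and Kif2c were the 3 members called whichever pair was left out. The dim filter kept CN2 in its mean in each of these fits. Kif2c, with a mean of 5.47 and a reading of 6.75 in CN2, lay near that filter, so its call without pair 2 still rests on a filter that counted CN2. The change of Ccna2 was -1.20 without pair 1 (adjusted p = 0.0471) and -1.52 without pair 3, that of Kif2c -0.91 and -1.03, and that of Mki67 -1.34 and -1.46. In the paired fit with only the 6 wild-type arrays, limma called 8 members lower (0.629% of all genes), and Birc5, Espl1 and Kif11 were not among them. With arrays weighted by their fit, limma called Espl1 alone (-0.33, adjusted p = 0.0483, against 2.24% of all genes called lower).

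**Figure D4:**
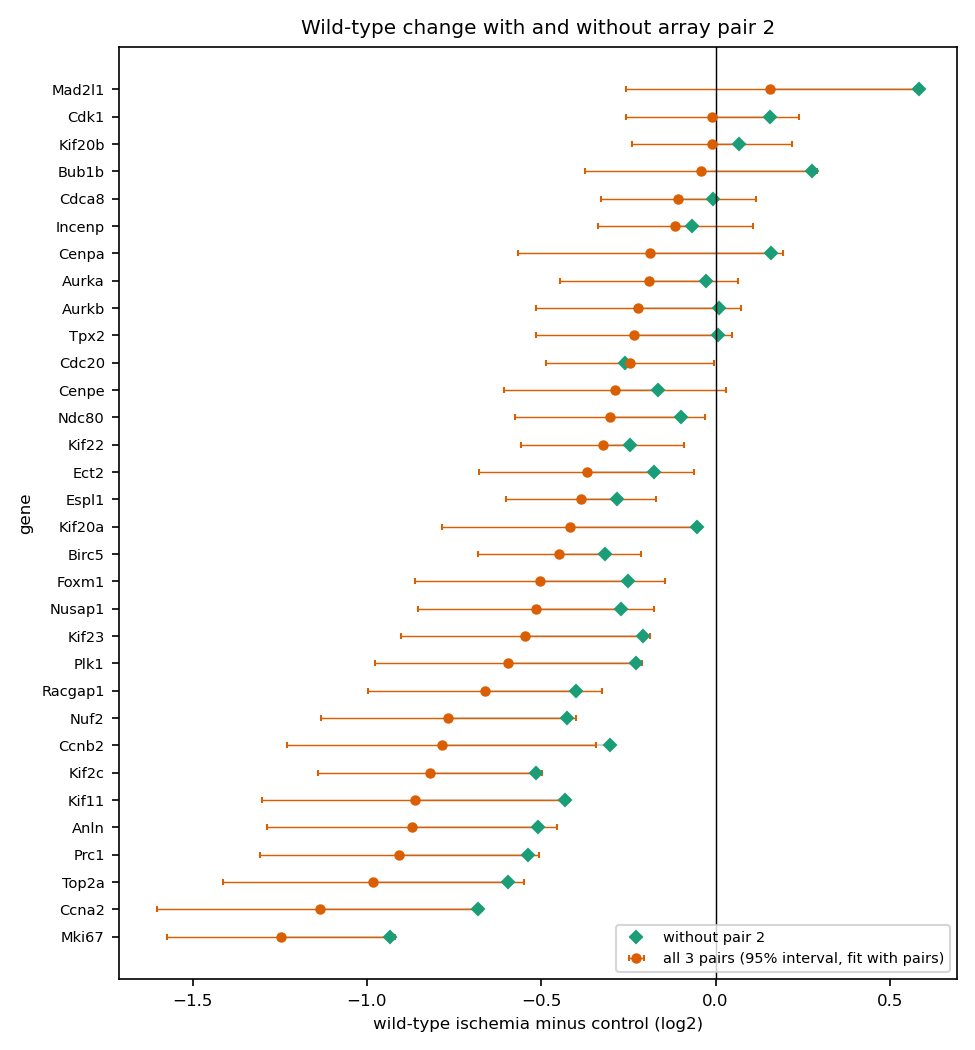
Wild-type change after ischemia (log2, horizontal axis) of the 32 tested members (vertical axis) over all 3 pairs (orange circles, with the 95% interval of the fit with pairs) and without arrays CN2 and CH2 (green diamonds). The diamonds lie to the right of the circles for every gene but Cdc20: Mki67 moves from -1.25 to -0.93, Cdk1 from -0.01 to 0.16 and Mad2l1 from 0.16 to 0.58.

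Ischemia in the knockout-labelled microglia was the second comparison. There 23 of 32 members were lower (50.2% of all genes), with a median of -0.07. Limma called none without the block (smallest adjusted p = 0.622, and 0 members at an unadjusted p under 0.05, against 3.08% of all genes lower and 5.66% higher) and none in the paired fit (smallest adjusted p = 0.0974). Of all genes, 0.0% were called lower without the block and 0.111% with it. Pair medians were -0.17, -0.15 and 0.08.

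Mki67 had the largest change here too. It read 7.04, 7.51 and 6.26 in TN1 to TN3 and 6.42, 6.92 and 5.81 in TH1 to TH3, and each ischemia array lay below the control array of its number. The change was -0.55, with a 95% interval of -0.88 to -0.22 in the paired fit. With only the 6 knockout-labelled arrays in the paired fit it was called (limma, adjusted p = 0.0361, against 0.0851% of all genes called lower), as it was with all arrays but CN2 and CH2 (adjusted p = 0.0357, against 0.131%). Ccna2 read 6.67, 6.97 and 6.10 in control and 6.28, 6.76 and 6.27 after ischemia, so pairs 1 and 2 were lower and pair 3 higher. Kif2c read 5.50, 5.90 and 5.39 in control and 5.22, 5.52 and 5.07 after ischemia, lower in each pair, with a change of -0.33 that was not called. With array weights limma called 5 members lower, against 8.14% of all genes: Foxm1 (-0.56), Plk1 (-0.53), Nusap1 (-0.56), Mki67 (-0.81) and Kif22 (-0.39), with adjusted p from 0.0152 to 0.0450. The weights of TN1 to TN3 were 0.49, 6.11 and 0.28, so these calls compare TH mainly with TN2. TN2 was the highest of the 3 control arrays in all 5 genes.

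Among the knockout-labelled arrays all 3 pairs were lower in 7 members (Mki67, Ccnb2, Plk1, Aurkb, Birc5, Espl1 and Kif2c), against 18.7% of all genes, and higher in Mad2l1 and Kif20b, against 20.8%. Ccnb2 read 6.38, 6.69 and 6.40 in control and 6.15, 6.27 and 6.22 after ischemia, the 1 tested member whose groups did not overlap (6.36% of all genes). Plk1 read 6.17, 6.71 and 6.33 in control and 6.08, 6.22 and 5.83 after ischemia. Top2a read 6.88, 7.13 and 5.74 in control and 6.68, 6.99 and 6.36 after ischemia, and Anln 5.64, 5.76 and 4.58 against 5.47, 5.83 and 5.30. In both genes pair 3 was higher, and TN3 was the lowest of the 12 arrays.

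The remaining named members overlapped between TN and TH. Prc1 read 6.08, 6.32 and 5.55 against 5.58, 6.14 and 5.74, and Kif11 5.85, 5.94 and 5.08 against 5.34, 5.83 and 5.30. Nuf2 read 5.72, 5.55 and 5.37 against 5.53, 5.78 and 5.18, and Racgap1 7.34, 7.80 and 7.15 against 7.20, 7.23 and 7.24. Birc5 read 5.91, 5.80 and 5.71 against 5.73, 5.71 and 5.59, Espl1 6.37, 6.32 and 6.19 against 6.19, 6.13 and 6.19, and the dim Bub1 5.21, 5.57 and 3.66 against 5.07, 5.35 and 4.73. The order of control and ischemia arrays thus differed from gene to gene, and limma called none of these 7.

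**Figure D5:**
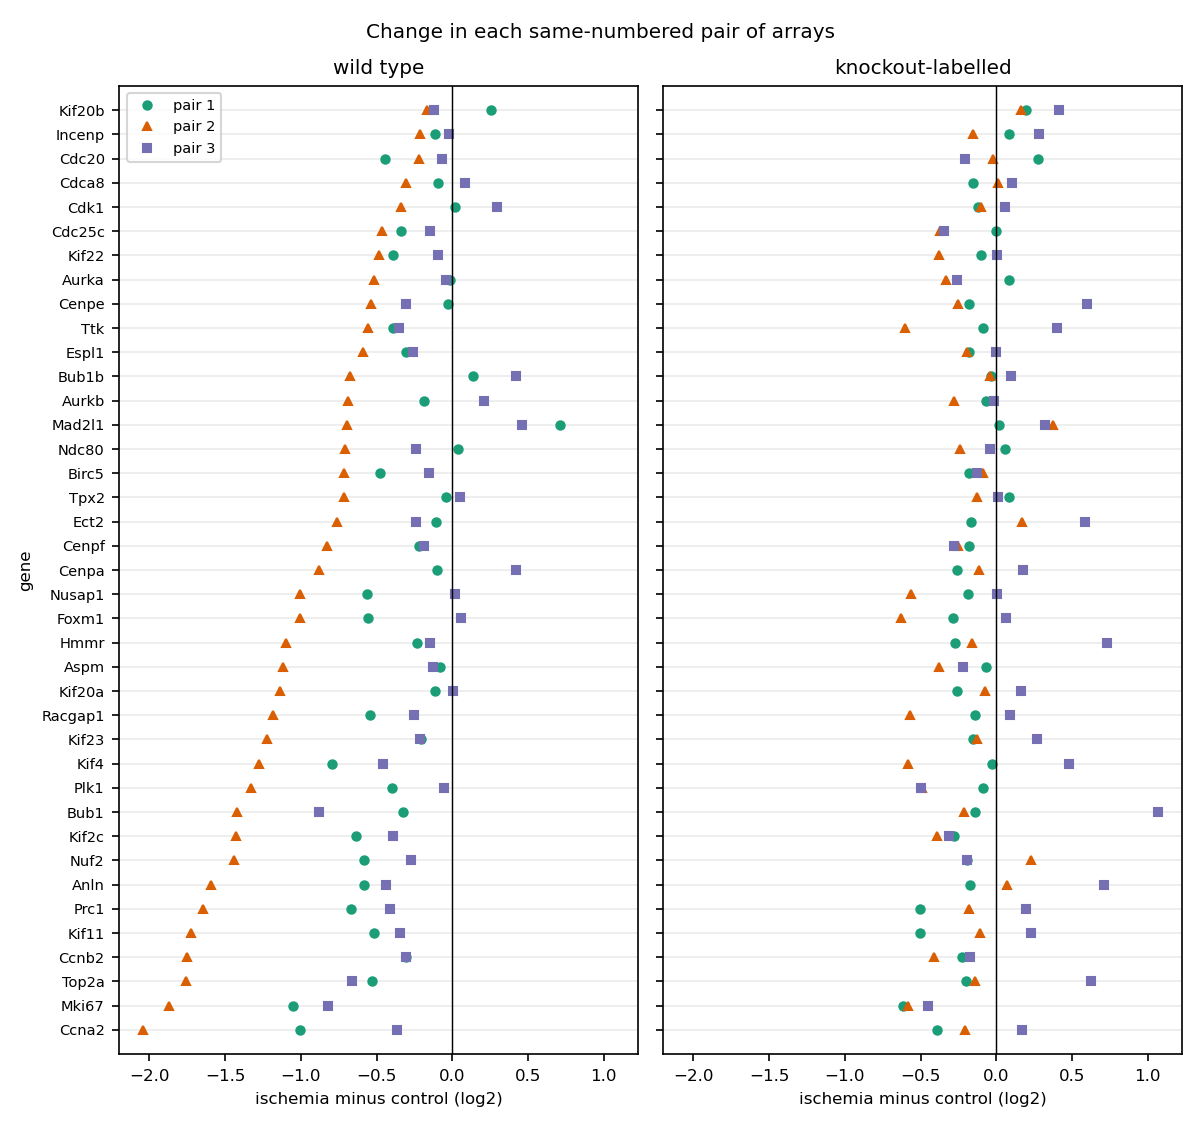
Change after ischemia (log2, horizontal axis) in each same-numbered pair of arrays for 39 genes (vertical axis, ordered by wild-type pair 2), wild type on the left and knockout-labelled on the right; pair 1 circles, pair 2 triangles, pair 3 squares. Wild-type pair 2 reaches -2.04 for Ccna2, while no knockout-labelled pair of a tested member goes below -0.63.

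The difference between the ischemia changes of the genotypes was tested directly and was not called. The change was less negative in the knockout-labelled arrays for 31 of 32 members (51.6% of all genes), by a median of 0.27. Limma gave an adjusted p of 1.00 throughout without the block, and the smallest adjusted p in the paired fit was 0.209, for Anln (1.08). The paired fit called 0.0131% of all genes higher in this comparison. The pair changes of the genotypes did not overlap in 7 members, all less negative in the knockout-labelled pairs (5.81% of all genes): Mki67, Top2a, Espl1, Nuf2, Kif23, Kif2c and Anln. Without CN2 the median difference was 0.02. Without CN2 and CH2 it was 0.15, with 21 of 32 members less negative and a smallest adjusted p of 0.380 in the paired fit. With pair 3 of the wild type left out, the paired fit called Ccna2 alone (1.38, adjusted p = 0.0439, against 0.0196% of all genes called higher), and not with pair 1 or pair 2 left out (adjusted p = 0.485 and 0.526).

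Control cells of the genotypes were compared next. In knockout-labelled control arrays 30 of 32 members were lower than in wild-type control (49.2% of all genes), with a median of -0.30, and limma called none (smallest adjusted p = 0.416, against 0.0524% of all genes called lower and 0.00655% higher). Without CN2 the median was -0.0038 and 16 members were higher. Cdk1 read 7.24, 7.07 and 6.91 in TN1 to TN3, above CN1 and CN3 and below CN2.

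Bub1b was lower in the knockout-labelled arrays with or without CN2. It read 6.84, 7.11 and 6.65 in TN1 to TN3 and 6.81, 7.07 and 6.74 in TH1 to TH3, all 6 below all 6 wild-type arrays (7.16 to 7.84). It was the 1 member whose control groups did not overlap with the knockout-labelled side lower (4.52% of all genes). The difference was -0.76 in control cells (95% interval -1.17 to -0.35, limma, adjusted p = 0.416) and -0.71 after ischemia (-1.12 to -0.30, adjusted p = 0.161). Without CN2 and CH2 the ischemia difference was -0.92 and was called (limma, adjusted p = 0.00832, against 1.53% of all genes called lower), and the control difference of -0.65 was not (adjusted p = 0.105). Leaving out CH2 alone gave the same -0.92 (adjusted p = 0.0323, against 0.511%), and array weights gave -0.80 (adjusted p = 0.00504, against 3.42%).

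Among all members after ischemia, 20 of the 32 were higher and 12 lower in the knockout-labelled arrays (52.7% of all genes higher), with a median of 0.03 and no call in limma (0.648% of all genes called lower and 0.0655% higher). Without CN2 and CH2 the balance was 27 to 5 and the median 0.13 (0.0072 over all genes), and Bub1b was the 1 member called. The groups did not overlap in 4 members, with Bub1b and Aurkb lower (8.07% of all genes) and Ccnb2 and Cenpa higher (8.38%). The ischemia comparison within each genotype and these genotype comparisons share arrays.

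Other genes of cell division were counted from lists chosen with earlier results of these data known. Without the block limma called none of the listed genes in the wild type after ischemia, so the wild-type calls below are those of the paired fit. Of 46 further mitosis genes tested, 37 were lower in the wild type after ischemia (median -0.28, and -0.02 without CN2), and the paired fit called 7 lower and 1 higher. Of all genes 47.6% were lower, and that fit called 0.74% lower and 2.99% higher. Without CN2 and CH2 the median of the 46 was -0.12, and 1 was called lower, Stil, and 1 higher (0.183% and 3.01% of all genes). Stil, a centriole assembly factor, fell by 0.77 (adjusted p = 0.00187) and by 0.61 without pair 2 (adjusted p = 0.0177). Nek2, a centrosome kinase, fell by 0.75, Ube2c, the ubiquitin-conjugating enzyme of the anaphase-promoting complex, by 0.67, and Ckap2l, a spindle protein, by 0.60. Without pair 2 these 3 were not called (adjusted p = 0.0720, 0.0890 and 0.0958). The 1 higher gene was Pttg1, which encodes securin, the inhibitor of separase. It was higher in each wild-type pair, by 0.58, 0.66 and 0.39. In the knockout-labelled arrays none of the 46 was called with all arrays. Ube2c fell there by 0.51 and was lower in each pair (-0.41, -0.70 and -0.43). Without CN2 and CH2 that change was called (paired fit of limma, adjusted p = 0.0487, against 0.131% of all genes called lower).

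Genes of S phase were counted in the same way. Of 29 replication and G1/S genes tested, 21 were lower in the wild type (median -0.12, and 0.17 without CN2), and the paired fit called 4 lower, against the same shares of all genes. Rrm2, a subunit of ribonucleotide reductase, fell by 0.78 (adjusted p = 0.00964). Uhrf1, which maintains DNA methylation, fell by 0.53, thymidine kinase Tk1 by 0.45 and the helicase subunit Mcm7 by 0.43. Without CN2 and CH2 the median was -0.04 and none of the 29 was called, with adjusted p of 0.0554 for Rrm2, 0.176 for Uhrf1, 0.0887 for Tk1 and 0.0995 for Mcm7. None of the 29 was called in the knockout-labelled arrays.

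The cohesin and condensin subunits, cell cycle brakes and activators showed few calls. None of 16 cohesin and condensin genes and none of 19 brakes was called in the wild type. Of 15 anaphase-promoting complex subunits 12 were higher and 3 lower (47.6% of all genes lower). The paired fit called Anapc13 (up by 0.48) and Anapc5 (up by 0.42), against 2.99% of all genes called higher, and neither without pair 2 (adjusted p = 0.0604 and 0.0940). Of 17 activators the transcription factor Myc alone was called, and rose by 0.44 (adjusted p = 0.0408), and was not called without pair 2 (0.50, adjusted p = 0.0660). The inhibitors Cdkn2a and Cdkn2b were higher in the knockout-labelled arrays by 0.65 and 0.36 in control and 0.74 and 0.48 after ischemia, without a call. Interferon-stimulated genes moved the other way from the mitosis genes in the wild type: 22 of 22 tested were higher. Limma without the block called none of them. The paired fit called all 22, and 18 of them without pair 2 (2.99% and 3.01% of all genes called higher).

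Markers of other cells were set beside these differences. Means over all measured markers were 5.52 to 5.66 in CN and 5.30 to 5.51 in CH for 10 neuron markers, of which Tubb3, Snap25, Stmn2, Nefl and Nefm were at or below the filter. They were 6.14 to 6.39 and 5.98 to 6.29 for 11 astrocyte markers, with Aqp4, Gja1 and Gjb6 at or below it, and 5.96 to 6.38 and 5.82 to 6.07 for 10 fibroblast and mural markers. Neural progenitor markers, which could come with dividing cells of another kind, were at 6.22 to 6.55 in CN and 6.24 to 6.48 in CH, and at 6.25 in CN2, with Sox2, Dcx, Prom1 and Eomes at or below the filter. Oligodendrocyte lineage markers were at 6.60 to 7.08 and 6.58 to 6.89. Monocyte and border macrophage markers were the 1 list whose CH range (6.75 to 7.06) lay above its CN range (6.31 to 6.64), with Ccr2, Cd163, Ms4a4c and Plac8 at or below the filter. Of the 6 above it, 4 were higher and 2 lower after ischemia, with a median change of 0.07. The paired fit called Chil3 and Pf4 alone, against 2.99% of all genes called higher. Endothelial markers were at 5.96 to 6.06 in CN and 6.02 to 6.12 in CH, lymphocyte markers at 5.14 to 5.21 and 4.99 to 5.23, and neutrophil markers at 5.35 to 5.43 and 5.21 to 5.35. CN2, the array with the highest mitosis signals, was within the range of CN1, CN3, CH1 and CH3 for the neuron and neural progenitor markers. For astrocyte markers CN2 (6.14) lay below those arrays (6.21 to 6.39) and above CH2 (5.98). For neutrophil markers CN2 (5.43) lay above those arrays (5.34 to 5.39) and CH2 (5.21). The microglia markers were all 14 above the filter, from 5.75 for P2ry12 to 12.3 for Csf1r. The part of these levels in the mitosis gene differences was not tested.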

How the data were processed

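RNA of 12 samples was hybridised, 1 sample an array, to the Affymetrix Mouse Gene 1.0 ST design. Each deposited value is the log2 signal of a probe set, which per the submitters' processing notes the authors obtained by RMA in Affymetrix Expression Console 1.1. That step makes the signal distributions of the arrays alike, so a change of total RNA cannot be seen. No scanner files were used. The platform annotation gave 1 symbol for 21789 of the 35557 probe sets and several for 1621, and did not list 12147. Current symbols came from Entrez identifiers, of which 21698 matched. Of the members, Top2a alone had a further single-symbol probe set, which was dim.

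Groups came from the sample titles. The extraction protocol names myocytes, while every other label names microglia. A model with 1 mean per group over all 12 arrays was fitted with limma 3.58.1 in R 4.3.3 (lmFit, eBayes), and a gene was called where its p, adjusted over 15273 genes by Benjamini-Hochberg, was under 0.05. The members and lists were chosen with earlier results of these data known. Values in every array are given for members called in either fit and for the member of each role with the largest wild-type change. Those of Ccnb2, Cdk1, Cdc25c, Mad2l1 and Bub1b were added after their values were seen. Of each other list, at most the 4 called genes with the largest change are named, or the 2 with the smallest p. Pttg1, the 1 further mitosis gene called higher in the wild type, was named outside that rule.

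Deviations from the group means correlated at 0.48, 0.73 and 0.48 between same-numbered wild-type control and ischemia arrays and at 0.36, 0.32 and 0.49 in the knockout-labelled ones, all above 0.1. Between unlike-numbered ones they ran from -0.62 to 0.40 in the wild type and from -0.44 to 0.22 in the knockout-labelled arrays. CN1 with CH3 (0.40) thus lay above pairs 1 and 2 of the knockout-labelled arrays. Across genotypes the range was -0.45 to 0.43. The numbers were therefore taken to pair arrays within a genotype, which rests on the data, since no label explains the number. The genotype comparisons kept the pair as a random block in that fit. The steps were tested on simulated data.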

Additional observations from a re-analysis of the deposited data

How the results depend on the processing

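The median change of the members kept its sign in the wild type under every alternative run (-0.62 to -0.16 leaving out 1 array), as it did in the knockout-labelled arrays (-0.19 to -0.0087) and for the difference of the 2 changes (0.02 to 0.49). For the genotypes it ran from -0.51 to -0.0038 in control cells, and was 0.03 with array weights, and from -0.0065 to 0.13 after ischemia. The count of wild-type members called lower, 0 without the block, was 11 with the replicate block within genotype and 1 with array weights (Espl1). With the block it was 3 lower and 1 higher without pair 2, 5 without pair 1, 14 without pair 3 and 8 with 1 genotype in the fit. With the block and no dim filter it was 6 of 39 members, against 37 of 19938 genes called lower. Over all genes the wild-type calls were 2 higher and 0 lower with no block; the block gave 457 and 113, array weights 683 and 342. Knockout-labelled members called lower were 5 with array weights (Mki67, Foxm1, Plk1, Kif22 and Nusap1), where TN2 held most of the control weight. They were 1 with the block without wild-type pair 2 or with 1 genotype. In the genotype comparison after ischemia 1 member, Bub1b, was called with array weights and without pair 2, in both fits, and leaving out 1 array gave 0 to 1. The paired fit called 1 member (Ccna2) in the difference of the changes without pair 3. The replicate block as 3 levels over all arrays called 0 members. Leaving out 1 array called 0 members in the other comparisons. Of values near 0, the wild-type change of Cdk1 turned to 0.0011 with quantile normalization, 0.051 with median centring and 0.16 without pair 2, and leaving out 1 array gave -0.22 to 0.33. That of Mad2l1 was -0.20 to 0.75 leaving out 1 array and -0.12 with the block without pair 1. The cause of these differences was not tested. The pairs 1 and 3, single-genotype and unfiltered fits with the block were chosen after seeing the data. With 3 arrays a group, their number limits the precision, and genes near the filter lie close to the background signal.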
